A study of Mus musculus with 3 samples.

Results

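Translation factors and aminoacyl tRNA synthetases are the protein machinery that turns messenger RNA into protein, and their transcripts were followed here in hippocampal area CA1 of mice after fear learning. Members were taken by gene symbol from the single-gene probe sets of the array: all Eif and Eef genes followed by a digit, the synthetases named by an amino acid letter, and Etf1, Gspt1 and Pabpc1, without Eif2s3x and Eif2s3y. This gave 98 probe sets of 72 genes, out of 12488 probe sets and 8251 named genes. The mice were young males of the inbred strain C57BL/6J and were trained by contextual fear conditioning: 3 cycles, each of 2 min in an unfamiliar chamber and then a 0.5 mA foot shock lasting 1 s. They were returned to their cage 1 min later, and CA1 RNA was taken 6 h after the final shock and measured on 3 replicate arrays, which form the only group. The labels name no agent, transgene or allele, and do not give the number of animals per array, so the spread may be partly technical. No unconditioned animals belong to these samples, so no value below can be read as a response to training; the question the data answer is at what signal each gene was detected and how closely the 3 replicates gave the same value.

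Protein synthesis begins when the ternary complex of eIF2, GTP and initiator tRNA joins the small ribosomal subunit with eIF1, eIF1A, eIF3 and eIF5, while the eIF4 factors bring in the capped messenger. The eIF2B complex recharges eIF2 with GTP, and kinases that phosphorylate eIF2alpha hold this step back and favour translation of the transcription factor ATF4, which in turn activates many cytosolic synthetase genes. Elongation factors eEF1 and eEF2 then deliver aminoacyl tRNA and move the ribosome, and eRF1 with eRF3 ends the chain. In hippocampus, new protein synthesis and the control of eIF2 and eIF4E are known for their part in lasting memory.

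The promoters of the synthetases include the letters by which ATF4 is known to recognise its targets, and they are shown because, at the starts examined, cytosolic synthetases were the members that held them. Of the 72 genes, 55 had a promoter in the RefSeq table (GRCm38.p6, 250 bases before to 50 after the annotated start), and the first start listed for each gene was used. TGATGNAA was searched on both strands (TTNCATCA on the other). At Aars the match shown shares bases with a run of pyrimidines, the feature searched in the next paragraph. TGATGNAA occurred in 5 of 10 cytosolic synthetase promoters, 50%, against 0 of 5 mitochondrial synthetase promoters and 4.06% of the promoters of all 27025 genes. It was in 0 of the 40 other member promoters that were matched, although a later listed start of Eef2k held it. Each line gives a match of one of these genes in 30 bases on the strand of the gene, with the match in capitals.
Aars, chr8:111033840-111033869, plus strand: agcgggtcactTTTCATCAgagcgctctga
Gars, chr6:55037960-55037989, plus strand: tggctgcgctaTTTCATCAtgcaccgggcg
Iars, chr13:49682126-49682155, plus strand: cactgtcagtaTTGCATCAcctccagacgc
Tars, chr15:11399655-11399684, minus strand: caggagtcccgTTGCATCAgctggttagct
Yars, chr4:129189895-129189924, plus strand: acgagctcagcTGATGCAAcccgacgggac
The matches shown began between 30 bases before the annotated start and base 10 after it. A match is a description of the letters and does not show that ATF4 was bound there in CA1.

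A second set of sequences shows the annotated starts of 5 of the 23 genes whose brightest probe set was highest on array 2, chosen after their values were seen. Messengers of elongation factors are known to begin with a run of pyrimidines that couples their translation to the mTOR pathway. Eif2b5 and Eif4b are not elongation factors. Each line gives 15 bases before and 15 after the start, with a run of 6 or more C or T in capitals where it touched the 10 bases on either side.
Eef1a1, chr9:78481710-78481739, minus strand: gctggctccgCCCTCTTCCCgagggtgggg
Eef1a2, chr2:181157001-181157030, minus strand: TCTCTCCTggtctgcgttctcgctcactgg
Eef2, chr10:81176616-81176645, plus strand: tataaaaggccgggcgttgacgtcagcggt
Eif2b5, chr16:20498802-20498831, plus strand: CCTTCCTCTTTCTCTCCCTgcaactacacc
Eif4b, chr15:102073758-102073787, plus strand: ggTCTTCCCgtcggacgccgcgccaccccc
Such a run was present in 16 of 55 member promoters, 29.1%, and in 29.1% of all promoters, so the members did not stand out from other genes in this feature. The genes highest on array 2 that are not shown were mixed. Eif3f, Eif3m and Qars held a run, while Eif2ak1, Eif3c and Eif3d did not. A relation between runs and signal was not tested. In Eef1a2 and Eif4b the run ended before the annotated start, so it lay outside the annotated messenger. A stricter form, a start at C followed by 4 further pyrimidines, was in 1 of 55 member promoters, 1.82%. It was in 2.49% of all promoters, and no start shown here had it. The window of Eef2 held no run, and annotated starts may lie some bases away from the starts used in CA1.

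The arrays were of similar brightness, and the labelled tissue showed its markers. The median signal was 176, 177 and 171 on arrays 1, 2 and 3. The CA1 pyramidal markers Wfs1, Pou3f1 and Dcn were above threshold on every array, where a probe set is called measured when its mean signal exceeds 175, the median of all values. Arrays 2 and 1 each stood apart in some controls. On array 2 the 3' to 5' ratios were lowest: signal at the 3' end of Gapdh was 3.99, 1.21 and 3.94 times that at its 5' end on arrays 1, 2 and 3, and for Actb the ratio was 2.57, 1.86 and 3.50. Of 6 choroid plexus and ependyma markers, 5 were highest on array 2, and their summed signal was 3879, 7580.2 and 2360.1. All 3 meninges markers were highest on array 1, with a summed signal of 9503, 4973 and 5283. Dcn was also highest on array 1, at 3498, 2382 and 2638, and a part of meninges in its signal was not tested. Between 6 and 18 probe sets carried identical values in a pair of arrays, so no array repeated another. In bulk tissue, fewer cells of a type and less RNA per cell cannot be told apart.

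Transcripts of the translation machinery were widely detected, and their spread between the arrays was close to that of all measured genes. Of the 72 genes, 61 (84.7%) were measured, against 59.1% of the 8251 named genes, and 58 of the 61 were above threshold on each array. The other 11 are described by their signals, since a low signal is not evidence of absence. All 17 cytosolic synthetases among the members, all 5 mitochondrial synthetases and all 10 eIF3 subunits with a probe set were measured. The median SD of log2 signal over the 3 arrays was 0.27 for the 61 genes and 0.25 for all 4876 measured genes. Highest and lowest array lay within 1.5-fold for 36 of the 61, 59.0%, against 63.9% of all measured genes. Signals are given below as deposited, in arbitrary units for arrays 1, 2 and 3 in that sequence, and each gene is represented by its brightest probe set unless another is named. Levels of different probe sets are not comparable, because probes bind with different strength.

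Of the 61 genes, 0 passed the limma variance test, which sets the variance of each probe set against that of others of similar signal (adjusted p over all 6218 measured probe sets under 0.05). Over all measured genes the share called was 0.0205%. The smallest adjusted p of any member probe set was 0.812. In simulated data, a log2 shift of 1 on 1 array was called in 0 of 200 cases, and a shift of 2 in 1.5%. With 3 arrays the test thus hardly ever calls ranges of the size seen in the members. This count of 0 therefore does not show that they were stable. At an unadjusted p under 0.05 there were 3 genes, Eef1b2, Eef2 and Eef1a1, against 4.57% of all measured genes. A range of over 2-fold between the highest and lowest array was seen in 6 genes, 9.84%, close to the 10.2% of all measured genes. These 6 were Eef1b2, Cars, Eef2, Eif5b, Eif2b5 and Eif3a, and leaving out array 2 left only 1 gene over 2-fold, Eef1b2. In the plot of spread against level, the members lie within the cloud of other genes.

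**Figure D1:**
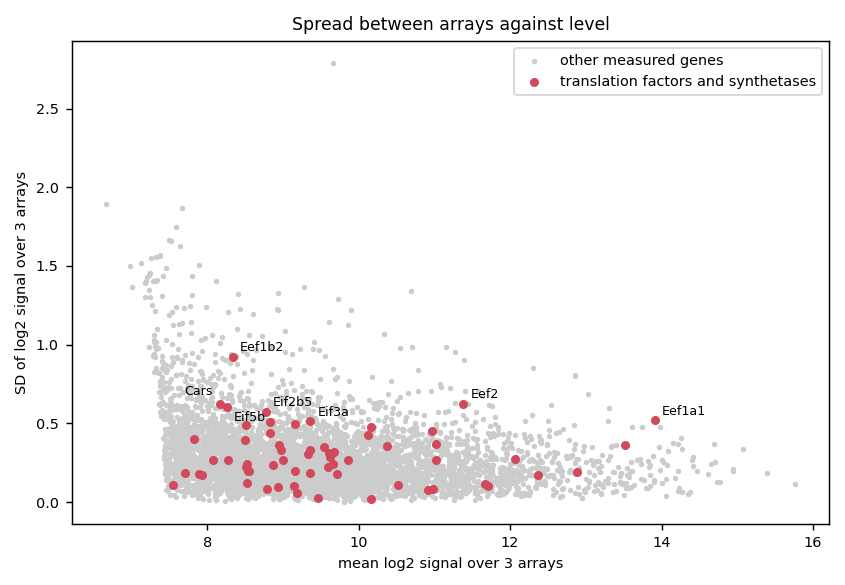
SD of log2 signal over 3 arrays (vertical axis) against mean log2 signal (horizontal axis) for 4876 measured genes, with the 61 translation genes in red and those over 2-fold apart or with an unadjusted variance p under 0.05 named. Eef1b2 has the largest SD of the translation genes, 0.92, and none passed the adjusted test.

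Of the groups with 4 or more measured genes, the elongation factors had the highest median SD of log2 signal, 0.44, and Eef1a1, Eef1a2 and Eef2 were highest on array 2. Eef1a1, which encodes the factor that delivers aminoacyl tRNA to the ribosome, gave 12137, 23563 and 12701. Eef1a2, its paralog of neurons and muscle, gave 9411, 15516 and 10954. Eef2, the translocation factor, gave 2162, 4451 and 1977. All 3 were highest on array 2, while arrays 1 and 3 lay close together for Eef1a1 and Eef2. Their means were 16134 ± 6440.2, 11960.4 ± 3175 and 2863 ± 1378 (SD, n = 3 arrays). The log2 ranges were 0.95, 0.72 and 1.12, and without array 2 those of Eef1a1 and Eef2 were 0.11 and 0.085. The limma adjusted p was 0.89 for Eef1a1, 0.971 for Eef1a2 and 0.861 for Eef2, so none passed. Array 2 was also the one with the lowest 3' to 5' ratios and the highest choroid plexus signal, and the part of either in these values was not tested.

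Of the exchange factor subunits that reload eEF1A with GTP, both measured ones were lowest on array 3. Eef1b2 gave 541, 404 and 154 and had the largest range of any member, 1.77 on the log2 scale, with array 3 under threshold (limma adjusted p 0.812). Its second probe set ran the other way, at 36.4, 56.7 and 166, all under threshold. The measured one carries the suffix that marks probe sets chosen with relaxed rules, so the order of Eef1b2 depends on the probe set. Eef1d, another subunit of the exchange complex, gave 709.7, 758 and 493, highest on array 2 like Eef1a1, Eef1a2 and Eef2. Eef1g, a further subunit, was under threshold at 36.6, 8.1 and 6.8. Eef1akmt1, a lysine methyltransferase that acts on eEF1A, was the most even of the group at 402, 342 and 361. Eef2k, the calcium and calmodulin dependent kinase that inhibits eEF2, was under threshold at 139, 42.9 and 33.3, and Eif5a, which helps ribosomes through difficult stretches, at 131, 73.7 and 103.

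Taking the group as a whole, 4 of the 6 measured elongation genes were highest on array 2, 66.7%, against 32.6% of all measured genes, and 5 of 6 lay above the mean of the other arrays there. Their median shift on array 2, the log2 signal of that array minus the mean of the others, was 0.52. The median over all measured genes was -0.065. On array 3 the median shift was -0.45 for the elongation genes and 0.060 for all measured genes, and without array 2 the first was -0.099. Eef1a1 is known for many near-identical processed pseudogenes, and whether its probes also bind their transcripts or that of Eef1a2 was not tested.

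**Figure D2:**
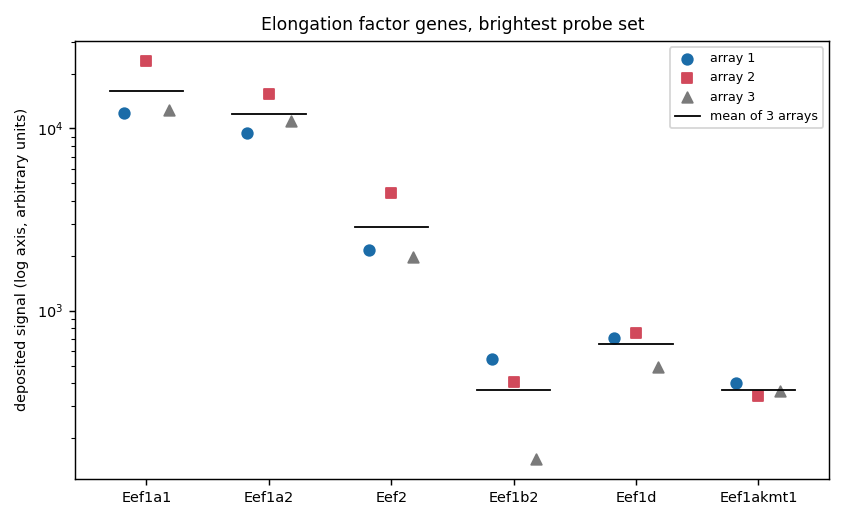
Deposited signal (log axis, arbitrary units) of the 6 measured elongation genes on arrays 1, 2 and 3, with a bar at the mean of 3 arrays. Eef1a1, Eef1a2 and Eef2 are highest on array 2 and Eef1b2 is lowest on array 3. Only the spread within a gene can be read, since heights of different probe sets are not comparable.

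Of the 8 members grouped under the ternary complex and start site selection, 7 were measured, and most of these were lowest on array 2. The only eIF2 subunit gene among the 8, Eif2s2, was not measured, so the 7 hold no subunit of the ternary complex. Eif5b, the GTPase that joins the ribosomal subunits, gave 407, 191 and 369, a log2 range of 1.09. Its second measured probe set gave 285, 290.1 and 385, with no low value on array 2, so the range rests on 1 probe set. Eif1a, a scanning factor gene, gave 556, 307 and 551, lowest on array 2, and its second probe set 289.9, 255 and 329.6, also lowest there. The X-linked Eif1ax, which encodes the same factor, gave 398, 552 and 464 and 171, 350.3 and 307 with its 2 probe sets, both highest on array 2 and lowest on array 1. Eif1a and Eif1ax are close paralogs, and on array 2 they took opposite places.

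The other measured members of this group had smaller ranges than Eif5b and Eif1a. Eif1b, a paralog of the start codon factor eIF1, gave 5549, 4683 and 5696. Eif5, the GTPase activator of eIF2, gave 1499, 1379.5 and 1545, the smallest SD of the group at 0.11. Eif2a and Eif2d, which encode factors able to bring initiator tRNA by other routes, gave 448, 356 and 314 and 441, 330.4 and 337, both highest on array 1. Eif2s2, the beta subunit of eIF2, was under threshold with its 2 probe sets, at 86.6, 105 and 106 and 133, 29.6 and 88.9. Of the 7 measured genes 5 were lowest on array 2, 71.4%, against 43.1% of all measured genes, and 0 had an unadjusted p under 0.05 in limma. The median shift of the group on array 1 was 0.38, but 0.044 with the measured threshold at the 75th percentile and -0.032 without array 2. Array 1 was also highest in the meninges markers, whose part in this shift was not tested.

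The eIF2B complex, the exchange factor mutated in vanishing white matter disease, was split between its subunits. Eif2b5, the catalytic epsilon subunit, gave 374, 697 and 320.2, with array 2 well above the others and a log2 range of 1.07. Its second probe set, under threshold on average, gave 50.1, 233 and 41.9 and was highest on the same array. Eif2b1, the alpha subunit, gave 745, 510.2 and 740.4 and was lowest on array 2. The beta and delta subunit genes Eif2b2 and Eif2b4 gave 327, 431 and 362, and 564, 596 and 592, and Eif2b4 had a log2 SD of only 0.06. The limma adjusted p of Eif2b5 was 0.958, and without array 2 its log2 range was 0.18.

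Of the 4 kinases that phosphorylate eIF2alpha, 1 was measured. Eif2ak1, the heme-regulated kinase HRI, gave 411, 819.8 and 551, highest on array 2 and lowest on array 1, and its log2 range of 0.99 was just inside the 2-fold limit. The other three were under threshold on each array. Eif2ak2, the double-stranded RNA sensor PKR, gave 60.7, 93.4 and 100.5. Eif2ak3, the endoplasmic reticulum stress sensor PERK, gave 108, 139 and 115. Eif2ak4, the amino acid sensor GCN2, gave 109, 46.4 and 154.

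By median SD the eIF3 subunits were the most even of the groups with 4 or more measured genes. All 10 were measured, 7 of them within 1.5-fold between the arrays, and their median log2 SD was 0.16, against 0.25 for all measured genes. By the share within 1.5-fold, 70%, they did not lead, as it was 71.4% for the start site genes and for the cap binding genes and 80% for the mitochondrial synthetases. Eif3l gave 1974, 1839.6 and 1962, Eif3b 2074, 2134 and 1851, Eif3c 3124, 3581 and 3372 and Eif3f 174, 201 and 189.7, the 4 lowest SDs of the group. Eif3k was close to them at 3266, 3035 and 3451, and Eif3e gave 420.5, 326 and 389.9. These subunits form the scaffold that holds the messenger and the small ribosomal subunit together.

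Some subunits of eIF3 were less even, in 2 opposite orders. Eif3a, the largest subunit, gave 658, 468 and 923, lowest on array 2 and highest on array 3 with a log2 range of 1.03, and the loosely bound subunit gene Eif3j1 had the same order at 811, 672 and 1006. Eif3d, a subunit able to bind the cap, gave 1132, 1504 and 807, and Eif3m gave 926, 1135 and 758, both highest on array 2 and lowest on array 3. The limma adjusted p was 0.968 for Eif3a and 0.971 for Eif3d. On array 2 the median shift of the 10 subunits was -0.015 and that of all measured genes -0.065.

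The factors that bind the cap and unwind the messenger were measured for 7 of 9 genes. Eif4a2, the helicase form that is prominent in brain, gave 8269.7, 6531 and 7871, and its paralog Eif4a1 gave 671, 558 and 499. The only probe set of Eif4a1 carries the suffix that marks those chosen with relaxed rules. Pabpc1, which encodes the main poly(A) binding protein, gave 4791, 3489.5 and 4706, lowest on array 2. Eif4g3, a scaffold gene, was also lowest on array 2, at 2591, 1434 and 2192, with a log2 range of 0.86, while Eif4g2, the scaffold that lacks eIF4E binding, was even at 421, 444 and 459.7. Eif4e2, a cap-binding repressor gene, gave 199, 194 and 237. Eif4e itself, the cap-binding protein, was just under threshold at 159, 175 and 153, and Eif4h, a cofactor of the helicase, was far under it at 18.4, 19.6 and 19.3.

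Eif4b, another helicase cofactor gene, shows how the reading depended on the probe set. Its brightest probe set gave 976, 1692 and 904 and was highest on array 2. The second measured one gave 211, 182 and 371, lowest on that array and highest on array 3. It carries the suffix that marks probe sets chosen with relaxed rules. The 2 others were under threshold. Among the repressors that bind eIF4E, Eif4ebp2, the main form in brain, gave 2089.5, 1759 and 2455, highest on array 3, and 372, 306 and 238 with a second probe set that was lowest there. Eif4ebp1 and the transport protein gene Eif4enif1 were under threshold, at 75.1, 108 and 94.8, and 18.1, 24.7 and 19.4. Eif6, which keeps the ribosomal subunits apart, gave 308, 500.0 and 305 and was highest on array 2, with arrays 1 and 3 nearly equal.

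Termination factors were measured on every array. Gspt1, which encodes the GTPase eRF3a, gave 772, 583 and 913, lowest on array 2. Etf1, the eRF1 gene that recognises stop codons, had 5 probe sets. The 4 measured ones gave 2253, 1589.5 and 2537, 1716, 1843 and 2364, 669, 545 and 580.5, and 514, 594 and 504. They did not share an order: the brightest was lowest on array 2, the dimmest measured one was highest there, and the log2 SD ran from 0.11 to 0.37.

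**Figure D3:**
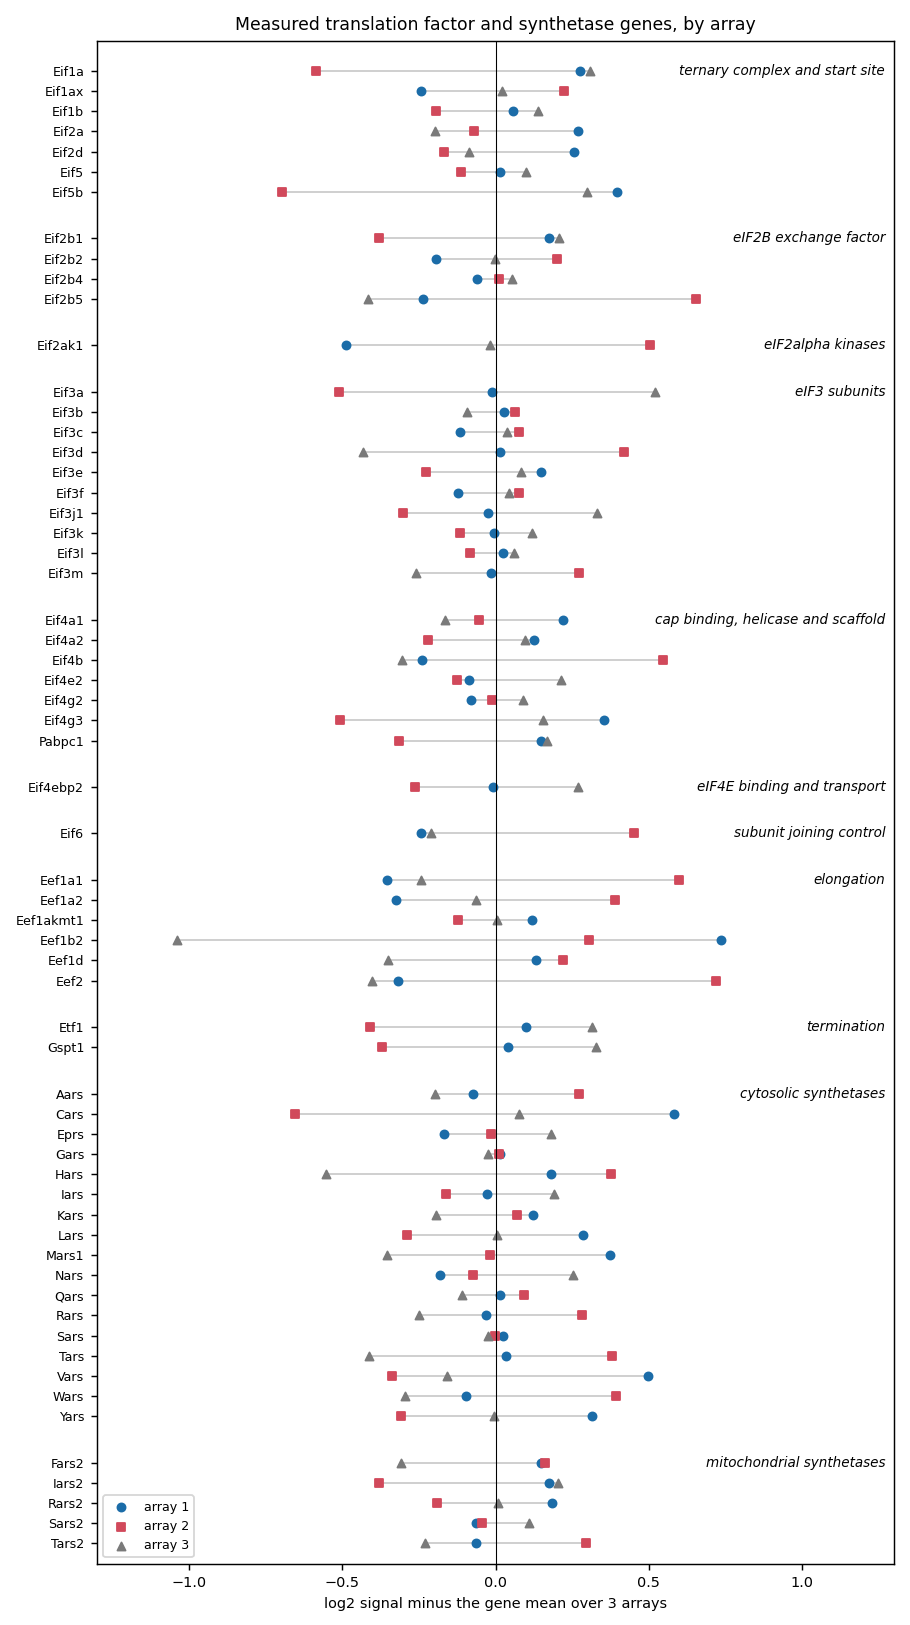
Log2 signal of each array minus the gene mean over 3 arrays (horizontal axis) for the 61 measured genes, grouped by role; circles, squares and triangles are arrays 1, 2 and 3. Array 2 lies farthest to the right for Eef1a1, Eef1a2, Eef2, Eif2b5 and Eif6, and farthest to the left for Eif5b, Eif1a, Eif4g3 and both termination factors.

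The 17 cytosolic synthetases taken by symbol, which charge tRNAs with their amino acids, were all measured, and 2 of them had the lowest SDs of the 61 genes. Gars, for glycine, gave 1162, 1166 and 1097, with a log2 SD of 0.02. Sars, for serine, gave 721, 711 and 677, with 0.02. Qars, for glutamine, and Kars, for lysine, gave 575, 609.9 and 512, and 269, 260.0 and 209. Eprs, the bifunctional synthetase for glutamate and proline, gave 214, 239 and 265, and Iars, for isoleucine, 828, 757 and 933. For these 6 genes the highest array was at most 1.28-fold above the lowest.

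Other synthetases were spread more widely. Cars, for cysteine, gave 435, 186 and 298, the only synthetase over 2-fold apart by its brightest probe set, with array 2 lowest (log2 range 1.24, limma adjusted p 0.971). Vars, for valine, gave 644, 363 and 397, highest on array 1. Hars, for histidine, gave 417, 479 and 243, and Tars, for threonine, 235, 299.7 and 167, both highest on array 2 and lowest on array 3. Rars, for arginine, and Aars, for alanine, had the same order at 505, 630.1 and 421, and 776, 989 and 691. Mars1, for methionine, gave 644, 492 and 377, and Lars, for leucine, 965, 651 and 771, both highest on array 1. Nars, for asparagine, gave 686, 742 and 899, highest on array 3.

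Wars, for tryptophan, which is also known as an interferon-responsive gene, had 3 measured probe sets with different orders. The brightest gave 1250.5, 1759.6 and 1055 and was highest on array 2. A second, whose suffix marks probes shared by several transcripts, gave 304, 821 and 329, a 2.69-fold range (log2 range 1.43, limma adjusted p 0.861). The third, whose suffix marks probes shared within a family, gave 428, 289.6 and 286 and was highest on array 1. Yars, for tyrosine, gave 980.4, 640.2 and 763, and 218, 198 and 218 with a second probe set, lowest on array 2 in both.

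As a group, 10 of the 17 cytosolic synthetases were lowest on array 3, 58.8%, against 27% of all measured genes. Gars and Sars are among the 10, although their log2 ranges were only 0.040 and 0.048. Their median shift there was -0.16, against 0.060 for all measured genes, and it was -0.038 without array 1 and -0.22 without array 2. None reached an unadjusted p under 0.05 in limma by its brightest probe set. The 5 genes with TGATGNAA in the promoter did not share an order: Aars and Tars were highest on array 2, Yars on array 1 and Iars on array 3, and Gars hardly differed.

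The mitochondrial synthetases varied about as much as the other members. Sars2 gave 471, 479.6 and 516, Rars2 754, 585 and 648 and Fars2 347, 352 and 246. Tars2 gave 261, 335 and 225, and Iars2, at 574, 392 and 569, was lowest on array 2. None was over 2-fold apart, and the median log2 SD was 0.27, as for the 61 genes together. Fars2 and Sars2 were lowest on arrays 3 and 1, so the 5 genes had no order in common.

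**Figure D4:**
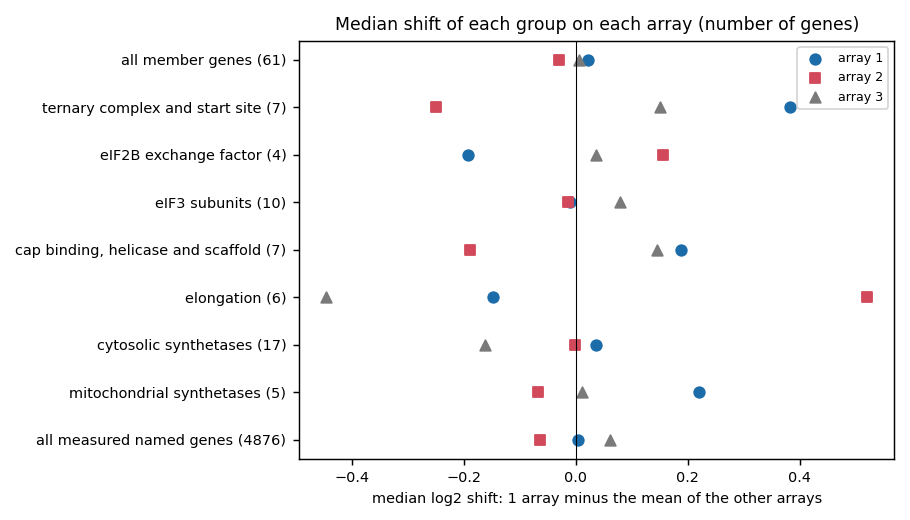
Median log2 shift of each group of at least 4 measured genes on each array, the array minus the mean of the other arrays, with the number of genes in parentheses. The elongation genes reach 0.52 on array 2 and -0.45 on array 3, whereas all 61 genes together lie between -0.029 and 0.022.

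Probe sets of one gene gave the same highest array in a minority of cases. Of 8 members with more than 1 measured probe set, 2 had all of them highest on 1 array after scaling, Eif1a and Eif1ax, and the same 2 also shared the lowest. Over all 675 genes with more than 1 measured probe set the shares were 34.4% and 19.6%. For the others, Eif4b, Eif4ebp2, Eif5b, Etf1, Wars and Yars, at least 1 probe set had another highest array than the brightest, which limits how far a difference between arrays at 1 probe set can be read.

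**Figure D5:**
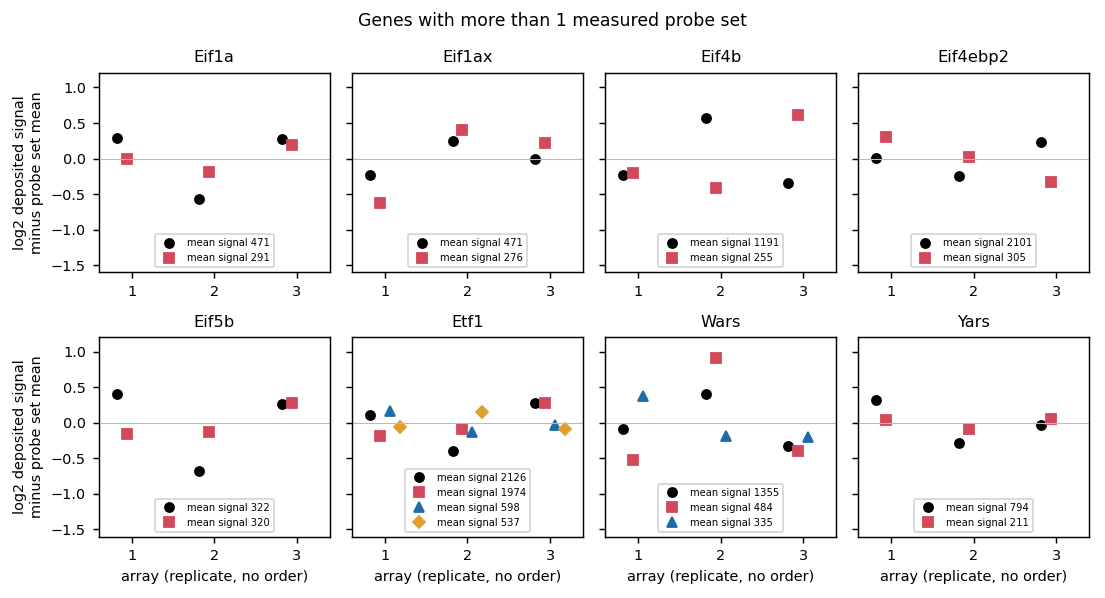
Log2 deposited signal minus the probe set mean (vertical axis) on arrays 1, 2 and 3 for the measured probe sets of 8 genes, 1 symbol per probe set. Those of Eif1ax are both highest on array 2, while those of Eif4b run in opposite orders and those of Eif4ebp2 differ in which array is highest.

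A list of 47 genes of translation and its control, outside the members but with a probe set, was also examined. Of these, 35 were measured and 0 passed the limma variance test, with a median log2 SD of 0.25. At an unadjusted p under 0.05 there were 3 of the 35, against 4.57% of all measured genes. All 3 belong to a list named for mTOR signalling, of which 10 of 10 genes were measured. The same 3, 30%, were over 2-fold apart, against 10.2% of all measured genes. That list also holds Pdk1, the gene of pyruvate dehydrogenase kinase 1, so the 10 genes include one outside the pathway. Pdk1 was not among the 3. Akt1, a kinase above mTOR, gave 737, 1450.2 and 683, highest on array 2. Pdpk1, the kinase that activates it, gave 1906, 1145 and 2391, lowest on that array. Rps6kb2, a ribosomal S6 kinase gene, gave 365, 322 and 111, lowest on array 3 and under threshold there. Mtor itself was very even at 1387, 1388 and 1381, as was Mknk2, an eIF4E kinase gene, at 601, 592 and 573. None of the 3 passed after adjustment, with limma adjusted p of 0.914, 0.899 and 0.899.

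Effectors of the eIF2 stress pathway were measured for 10 of 16 genes, and 0 were over 2-fold apart. Atf4, the factor whose motif letters 5 synthetase promoters held, gave 1817, 2501 and 1743, and its known target Asns, for asparagine synthetase, 3821, 3618 and 3596. Ppp1r15a, which encodes the inducible eIF2alpha phosphatase subunit, gave 246, 285 and 236, while Trib3, an inhibitor of ATF4, was under threshold at 149, 45.4 and 33.3. Among synthetase partners, Aimp1, a scaffold protein gene of the multi-synthetase complex, gave 2345, 1407 and 2086, and Aimp2, another scaffold, 1575, 1218 and 1408, both lowest on array 2. Farsb, the beta subunit for phenylalanine, gave 281, 387 and 437, and Farsa, the alpha subunit, was under threshold at 68, 171 and 47.5. Among 12 measured regulators in neurons, Cyfip2, which binds the fragile X protein, gave 5331, 5936 and 3477, Fmr1, the fragile X gene, 359.7, 266 and 383, and Pum2, a repressor of messengers, 4755, 3916 and 4532.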

How the data were processed

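The deposited values are linear signal intensities, 1 for each probe set on each array, made by a program not given in the sources used here. The authors' values were already scaled, with a mean after trimming 2% at each end of 500.3 on each array. Names came from the platform annotation and were updated to GRCm38.p6 symbols. Of 12422 probe sets other than controls, 10833 had 1 gene symbol, 396 several and 1193 none.

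Arrays were rescaled to a common median over measured probe sets (factors 0.991, 0.987 and 1.02), floored at 47.5, the 25th percentile of all values, and log2-transformed. Variances were tested with limma 3.58.1 in R 4.3.3 against a robust intensity-dependent prior (tails winsorised at 0.05 and 0.1), with Benjamini-Hochberg adjustment over 6218 probe sets. It was tested on simulated data of that size with known shifts. The number of arrays limits the precision. Members and lists were chosen with earlier results of these data known. Every member could be named. Those given by array were members over 2-fold apart, with unadjusted p under 0.05, with several probe sets or central to the pathway, and the 4 most even of each group. Not every promoter match found is reported here.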

Additional observations from a re-analysis of the deposited data

How the results depend on the processing

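The count of 0 members past the limma variance test was also 0 under the 14 other settings tried, which for a test that rarely calls such ranges says nothing about stability, and was 3 at an unadjusted p under 0.05; the list of other translation genes gave 0 under each of its 14 settings. The count over 2-fold apart, 6 in the report, was 2 with the measured threshold at the 75th percentile and ran from 1 to 4 when 1 array was left out. It stayed between 5 and 8 elsewhere. The median log2 SD ran from 0.24 to 0.29 over the settings and from 0.14 to 0.25 with 1 array left out. No scaling, quantile normalization, cyclic loess, 2 other floors, 3 other thresholds, the mean of a gene's probe sets, plain-suffix probe sets and a prior without the robust fit were the settings tried. Of 374 values for group shifts and named genes, 4 were marked as moved. All 4 were group shifts, which were marked when they changed by more than the group's median log2 SD. Ranges of named genes were judged only by whether the adjusted limma p crossed 0.05, and none did. The ranges themselves could change greatly. That of Eef1b2 fell from 1.77 to 0.43 without array 3, and that of Eef2 from 1.12 to 0.085 without array 2. For start site genes on array 1 the shift was 0.044 with the threshold at the 75th percentile and changed sign to -0.032 without array 2. With the threshold at the 75th percentile eIF2B gave 0.075 on array 1 and -0.22 on array 2, against -0.19 and 0.16 in the report's setting. The cause was not tested. The elongation shift on array 2 ran from 0.33 to 0.80, and from 0.40 to 0.71 with 1 array left out. No paired analysis was possible because there is 1 group. Groups of 3 arrays are too small for a check on single outlying samples.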
